A study of Mus musculus with 2 samples.

Results

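The droplets described here held T cell transcripts but no antibody data. They were part of a CITE-seq experiment, in which mRNA and DNA-barcoded antibodies are counted in the same cells, on Live MHCIIhi CD11c+ B220- cells sorted from lymph nodes of B6 mice. One library came from unimmunized mice (naive, pooled skin-draining lymph nodes per the methods, popliteal per the labels' protocol) and the other from mice given OVA and papain in both rear footpads, with popliteal lymph nodes taken on day 1 (papain). Each group was 1 library, so no test between groups was possible, and immunization cannot be told apart from the lymph node site or the library. The members were the droplets that the deposited annotation gave no antibody class and labelled as positive for Cd3e or Trac. There were 237 of 3471 droplets in the naive library and 241 of 7596 in the papain library, out of 11067 in all, and none of them had an antibody value. The label matched the counts exactly, since every droplet with at least 1 UMI (unique molecular identifier, a counted mRNA molecule) of either gene carried it.

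T cells carry the CD3 complex, which passes on the signal of the T cell receptor, and use CD4 or CD8 as coreceptor. CD4 T cells read peptides on MHC class II and CD8 T cells read peptides on MHC class I, both shown to them in the lymph node by DCs that migrate in from the skin. Naive T cells circulate between blood and lymph nodes and express Lef1 and Tcf7 (transcription factors), S1pr1 (needed to leave the node) and Klf2, a transcription factor that drives S1pr1. Gamma-delta T cells use another receptor, and a subset of them in the skin makes IL-17.

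The T droplets were small. They held a median of 7626 UMIs in the naive library (4232 to 57378) and 6980 in the papain library (3027 to 56025), against 13876 and 14844 in DCs that had an antibody class and no Cd3e or Trac UMI (called classified DCs below). No barcode of a T droplet was shared between the libraries. Both chosen genes were present in 179 naive and 196 papain T droplets, and 12 in each library rested on a single UMI of Cd3e or Trac. Intervals below are exact 95% intervals over UMIs or droplets and cover counting error only. Values in CPM scale a gene's UMIs to all UMIs, both summed over the droplets of a group.

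The T droplets fell into distinct kinds when their T cell and DC mRNA were counted side by side. T cell mRNA was counted over 17 genes of the receptor complex and its signalling without Cd3e and Trac, and DC mRNA over 14 genes, 4 of MHC class II (Cd74, H2-Aa, H2-Ab1, H2-Eb1) and 10 of migratory DCs such as Fscn1 (fascin), Cst3 (cystatin C) and Ccl22 (a chemokine for T cells). DC UMIs left a wide gap, since 455 T droplets held 15 or fewer and the other 23 held 104 or more, in both libraries together. The 455 droplets below the gap, called T-only, were 218 of the naive T droplets (92.0%, interval 87.8 to 95.1) and 237 of the papain T droplets (98.3%, interval 95.8 to 99.6). Every one of them held at least 16 T cell UMIs, with medians of 45 (naive) and 40 (papain), and a median of 3 DC UMIs in each. The cuts were set in these gaps after the values were seen.

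**Figure D1:**
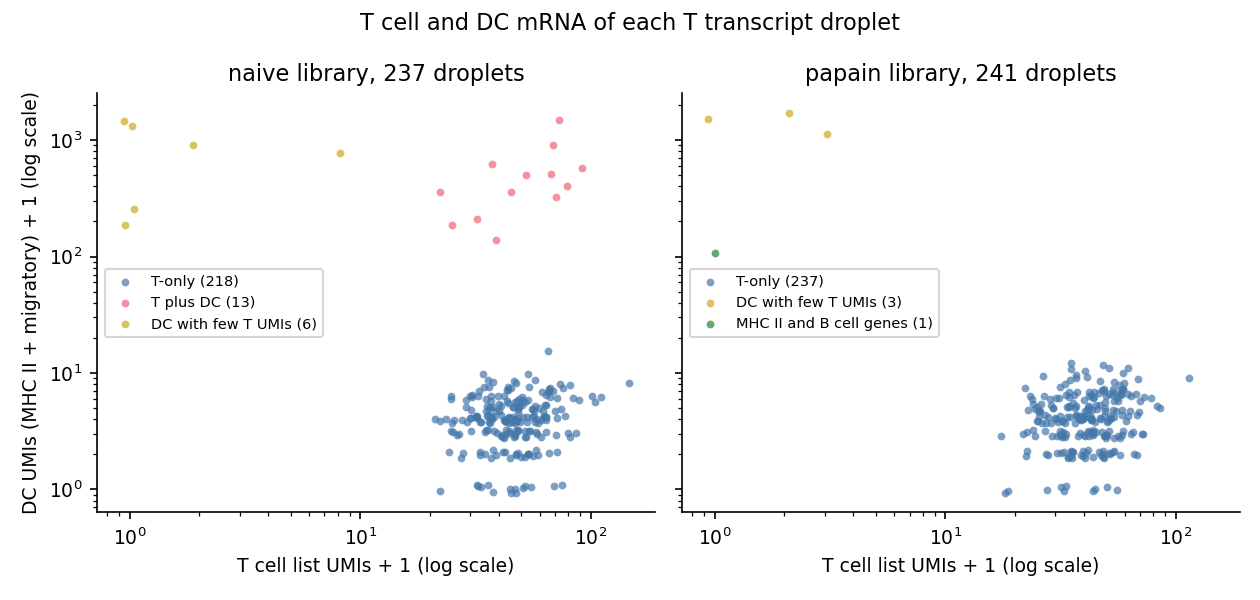
T cell UMIs (17 genes, x axis) and DC UMIs (14 genes, y axis) of each T droplet, both plus 1 and on log scales, with a small jitter. T-only droplets form 1 cloud in each library at 15 or fewer DC UMIs, and the 13 droplets rich in both kinds of mRNA lie in the naive panel.

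The droplets above the gap were of 3 kinds. In the naive library, 13 (5.49%, interval 2.95 to 9.20) held the mRNA of both cell types, with 20 to 95 T cell UMIs (median 50) and 147 to 1466 DC UMIs (median 380), and are called T plus DC droplets. None of the 241 papain T droplets was of this kind, which allows a share of up to 1.24% if a count of 0 is taken to allow 3 droplets (the exact upper limit is 1.52%). Another 6 naive and 3 papain droplets held 187 to 1460 and 1212 to 1753 DC UMIs but 0 to 7 and 0 to 2 T cell UMIs, so that their T label rested on 1 or 2 UMIs of Cd3e or Trac. The last was a papain droplet with 103 MHC class II UMIs, 1 UMI of the migratory DC genes and no T cell UMI beyond 1 of Trac. It held 16 UMIs of Cd79a and 15 of Cd79b (both parts of the B cell receptor), 29 of Igkc and 4 of Ms4a1 (CD20).

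The 13 T plus DC droplets were deep, with a median of 32223 UMIs and 5559 genes, against 7397 UMIs and 2137 genes in the naive T-only droplets. The 9 droplets with few T cell UMIs were deeper still, with medians of 36326 UMIs (naive) and 53292 UMIs (papain).

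DC mRNA in the T-only droplets is described here without a comparison of kinds, since the cut used the same genes. Relative to the classified DCs of the same library, the 13 DC genes with at least 50 CPM in those DCs lay between 0.741% (Cd74) and 4.89% (Cacnb3) in the naive library, with a median of 1.73%. In the papain library they lay between 0.942% (Ccl17) and 5.72% (Cacnb3), with a median of 1.82%. Il4i1, the remaining gene of the list, was at 0 in T-only droplets and under 1 CPM in DCs.

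Cd74, the invariant chain of MHC class II, stood at 56.3 CPM in naive T-only droplets and 7605 CPM in naive DCs. In the papain library the corresponding Cd74 levels were 71.5 and 4481 CPM. Fscn1 reached 1.73% (interval 1.32 to 2.22) and 1.80% (interval 1.44 to 2.22) of the DC level in the naive and papain library. Cst3 reached 2.17% (interval 1.82 to 2.57) and 2.14% (interval 1.86 to 2.46). Cacnb3, a calcium channel subunit, and Syngr2 stood above the other genes in both libraries, and Syngr2 was at 4.03% and 4.11%. T-only droplets without any MHC class II UMI numbered 64 of 218 in the naive library (29.4%) and 101 of 237 in the papain library (42.6%). Defining genes of DC subsets were low in T-only droplets, where Cd207 (langerin), Mgl2 (CD301b), Clec9a and Clec10a had no UMI. The highest of the listed genes of cDC1s, a DC subset, reached 15.7 CPM in naive and 11.7 CPM in papain T-only droplets. Xcr1, also a gene of cDC1s, was at 1.72 CPM in all naive T droplets against 5.29 in classified DCs. In the papain library Xcr1 went the other way, at 2.14 against 0.795 CPM. The papain droplets above the gap in DC UMIs held no Xcr1 UMI. In papain classified DCs, Mgl2, Clec9a and Clec10a were themselves at 0.795, 0.345 and 0.150 CPM, so their absence there says little. In the T plus DC droplets the same 13 genes stood at 41.2% to 95.4% of the DC level, with a median of 64.7%. The cut used these genes, so the distance from the T-only droplets is not read as a result.

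**Figure D2:**
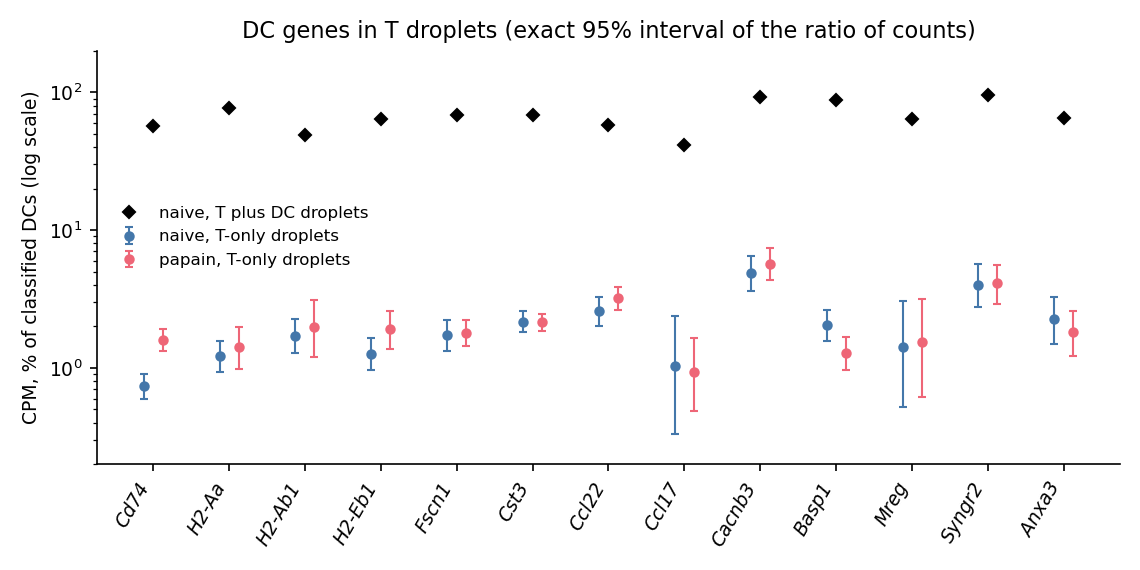
Level of 13 DC genes (CPM) in T droplets as a percentage of the level in classified DCs of the same library, on a log scale, with exact 95% intervals of the ratio of counts. T-only droplets lie between 0.741% and 5.72%, and the 13 T plus DC droplets of the naive library lie at 41.2% to 95.4%. The cut between these kinds used the same genes.

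Per droplet, DC mRNA was also expressed relative to the median DC of the same library. Summed MHC class II had a median of 3.32% of the DC median in naive T droplets (interval 3.07 to 3.79) and 3.39% in papain T droplets (interval 2.39 to 3.85). Under a limit of 10% lay 203 naive (85.7%, interval 80.5 to 89.9) and 211 papain T droplets (87.6%, interval 82.7 to 91.4). Of the 34 naive droplets at or over the limit, 15 held just 2 to 9 MHC class II UMIs, and of the 30 papain droplets, 26 held 2 to 6. A few UMIs thus put a droplet this shallow on either side of the limit, and 54 naive and 72 papain droplets lay between 5% and 20%. DCs also varied widely on this scale, from 18.6% at the 5th percentile to 1250% at the 95th in the naive library.

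The T-only droplets held T cell markers other than Cd3e and Trac, the genes that chose the T droplets. Cd3d and Trbc2 count toward the cut of 15 T cell UMIs, so their shares are a description. Cd3d was present in 217 of 218 naive and 234 of 237 papain T-only droplets (99.5% and 98.7%), and in 4.50% and 1.85% of all DCs with an antibody class. Trbc2, the constant region of the receptor beta chain, was present in 96.8% and 97.9% of T-only droplets and in 5.92% and 2.18% of those DCs. With every droplet thinned to 5084 UMIs, which left out 9 naive and 39 papain T-only droplets as too shallow, Trbc2 was expected in 94.4% and 96.6% of T-only droplets and in 3.63% and 0.996% of DCs. The sort was for MHCIIhi CD11c+ B220- cells, and Itgax (CD11c) had a UMI in 4 naive and 2 papain T-only droplets.

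All T droplets were compared with classified DCs over the genes with at least 50 CPM in either group. More than 2-fold higher in T droplets were 16.6% of 3093 genes in the naive library and 22.1% of 3258 genes in the papain library. The receptor genes lay at 4.04 CPM or less in naive and 1.74 CPM or less in papain classified DCs, and thus passed this filter through the T droplets, so their levels are given here as a description and their number past 2-fold is not. Cd3e and Trac were used for the choice of both the T droplets and these DCs. In T-only droplets the listed receptor genes ran from 51.7 to 1083 CPM (naive) and from 65.1 to 1030 CPM (papain). Cd3g, a CD3 chain that the choice did not use, was at 510 CPM in naive T droplets against 0.470 in DCs, and the papain values were 564 and 0.327 CPM. Cd3d was at 600 against 1.32 CPM and at 747 against 0.831 CPM.

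In the other direction, 21% of the genes tested in the naive library and 29.3% of those in the papain library were more than 2-fold lower in T droplets. All 4 MHC class II genes and the 9 migratory DC genes that passed the filter were among these in each library. Mreg in the papain library (24.6 against 267 CPM) passed the filter through the DCs. The lists name genes of DCs, so this count is not read as a result either. The 5 genes with the lowest mean log2 ratio were Il7 (the T cell survival cytokine), Fabp5 (a fatty acid binding protein), Ier3, Il1b (interleukin-1 beta) and Flrt3. Il7, Ier3 and Flrt3 in each library, and Il1b in the naive library (40.1 CPM in T droplets), also passed the filter through the DCs. Their rank is thus a description. Il7 was at 8.18 CPM in naive T droplets against 80.2 in DCs, and at 4.81 against 85.2 CPM in the papain library. Fabp5 was at 172 against 972 CPM and at 162 against 3143 CPM. These sums over all T droplets include the deep DC-rich ones. In T-only droplets Il7 was at 0.581 (naive) and 0.586 CPM (papain), and Fabp5 at 27.3 and 49.3 CPM.

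By coreceptor transcripts alone, more T droplets fell in the CD8 than in the CD4 gate, while the clusters described further on put as many (naive) or more (papain) in a CD4 T cell-like cluster. At least 1 UMI of Cd8a or Cd8b1 and none of Cd4 was seen in 114 naive (48.1%, interval 41.6 to 54.7) and 99 papain T droplets (41.1%, interval 34.8 to 47.6). At least 1 UMI of Cd4 and none of Cd8a or Cd8b1 was seen in 46 naive (19.4%, interval 14.6 to 25.03) and 55 papain T droplets (22.8%, interval 17.7 to 28.6). In all DCs with an antibody class the CD8 gate held 11.97% (naive) and 8.75% (papain) and the CD4 gate 4.77% and 0.972%. At least 1 UMI of both coreceptors was seen in 7 droplets of each library, and of neither in 70 naive and 80 papain droplets. With 2 UMIs of each asked for, the share with both was 0% in each library.

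Cd4 mRNA was sparse. With 2 UMIs asked for, the CD4 share was 10.1% (naive) and 9.13% (papain), against CD8 shares of 45.1% and 38.2%. The CD4 and CD8 shares of the naive and papain libraries had overlapping intervals. Foxp3, the transcription factor of regulatory T cells, was detected in 3 naive (1.27%, interval 0.262 to 3.65) and 6 papain T droplets (2.49%, interval 0.919 to 5.34). Trdc, the constant region of the receptor delta chain, was found in 8 T droplets of each library.

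**Figure D3:**
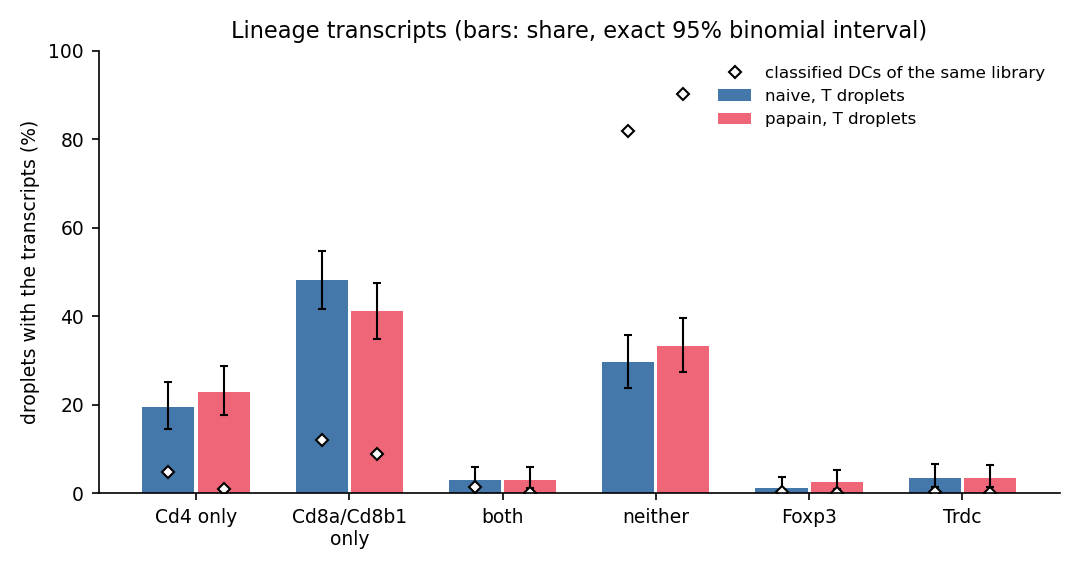
Percentage of T droplets with each combination of lineage transcripts in the naive (237) and papain (241) library, with exact 95% binomial intervals, and the same percentage in all DCs with an antibody class (diamonds). The CD8 bars (48.1% and 41.1%) stand above the CD4 bars (19.4% and 22.8%) in both libraries.

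Clustering of the droplets of both libraries on their most variable genes gave 3 clusters. The largest, a CD4 T cell-like cluster of 251 droplets (109 naive, 46.0%, and 142 papain, 58.9%), was led by Cd4, Ly6c1, Itm2a, Igfbp4 and Trib2. It held 94 droplets of the CD4 gate, 24 of the CD8 gate and 120 with neither coreceptor, so most droplets without a coreceptor UMI lay here. The second, a CD8 T cell-like cluster of 205 droplets (109 naive, 46.0%, and 96 papain, 39.8%), was led by Ly6c2, Nkg7, Cd8b1, Plac8, Cd8a and Klrd1. It held 182 droplets of the CD8 gate, 6 of the CD4 gate and 17 with neither coreceptor. The CD4 T cell-like cluster was shallower, with medians of 6720 (naive) and 6179 UMIs (papain) against 8381 and 7716.5. The part of depth in its droplets without a coreceptor UMI was not tested. Foxp3 was detected in 3 droplets of the first cluster and 6 of the second, so the names describe most of a cluster and not each droplet. The third, called DC-rich, held 22 of the 23 droplets above the gap in DC UMIs (19 naive, 8.02%, and 3 papain, 1.24%). It was led by H2-M2, Marcks, Cd74, Basp1 and H2-Aa. The papain droplet with B cell genes lay in the CD4 T cell-like cluster. The genes that lead a cluster also formed it, so they are a description.

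Cd8b1 was present in 98 of 109 naive and 80 of 96 papain droplets of the CD8 T cell-like cluster, at 611 and 558 CPM, and in 15 of 109 and 21 of 142 of the CD4 T cell-like cluster, at 34.2 and 68.0 CPM. Cd4 was present in 49 of 109 and 58 of 142 droplets of the CD4 T cell-like cluster, at 111 and 91.4 CPM, and in 2 of 109 and 4 of 96 of the other. The CD8 T cell-like droplets also held transcripts of cytotoxic cells. Nkg7, a granule protein, was present in 71.6% (naive) and 72.9% (papain) of them, against 1.83% and 2.82% of CD4 T cell-like droplets. Klrd1 (CD94) was present in 66.1% and 65.6% against 8.26% and 8.45%, and Ctsw (cathepsin W) in 60.6% and 62.5% against 15.6% and 18.3%. Of the killing proteins, Prf1 (perforin) was present in 11.9% and 10.1% of T-only droplets, while Gzmb (granzyme B) had no UMI in the naive and was found in 0.844% of the papain ones. Ncr1, a marker of NK cells, was found in 1 naive and no papain T-only droplet.

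Ly6c2, the Ly6C2 surface protein that marks memory CD8 T cells as well as monocytes, was present in 33.9% and 38.5% of CD8 T cell-like droplets, at 166 and 368 CPM. Of the other listed monocyte and macrophage genes, Csf1r, Adgre1 and C1qa had no UMI in T-only droplets. Cx3cr1, the remaining one in the files, was at 1.29 CPM in all naive T droplets against 7.62 in classified DCs. In the papain library it was at 1.07 against 0.362 CPM, on 2 UMIs in T droplets. Plac8 was present in 42.2% and 54.2% of CD8 T cell-like droplets and Ikzf2 in 38.5% of them in both libraries.

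Genes of naive and recirculating T cells were high in the T-only droplets of both libraries. Of the 10 listed genes, 9 were more than 2-fold higher in T droplets than in classified DCs in each library, beside 16.6% (naive) and 22.1% (papain) of all genes tested. Several of the 9 were near 0 in DCs and passed the filter through the T droplets, so the count is not read as a result. The exception was Ccr7, the receptor that guides T cells and DCs to the T cell zone, at 869 and 922 CPM in T-only droplets and 3407 and 3210 CPM in all DCs with an antibody class. Lef1 was present in 84.4% of naive and 81.9% of papain T-only droplets and in 1.22% and 0.917% of those DCs. S1pr1 was present in 91.7% and 85.7% and Tcf7 in 86.2% and 86.5%. Cd44, which is high on T cells that have met antigen, was present in 15.1% and 13.9% of T-only droplets and in 82.4% and 91.2% of DCs.

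Of the genes induced by receptor signalling, Cd69 was present in 33.0% and 33.8% of T-only droplets (DCs 11.2% and 8.83%) and Icos, a costimulatory receptor of T cells, in 59.2% and 65.8% (DCs 10.7% and 4.69%). Il2ra (CD25) was present in 1.83% of naive (interval 0.502 to 4.63) and 6.75% of papain T-only droplets (interval 3.91 to 10.7), below its shares of 31.5% and 56.6% in DCs. Thinned to 5084 UMIs, Il2ra was expected in 1.53% and 4.86% of T-only droplets. Il2 was found in 3 naive and 6 papain T-only droplets (1.38% and 2.53%), and in 4.96% and 6.67% of DCs. Thinned, these Il2 shares were 1.05% and 1.76% in T-only droplets and 1.73% and 2.11% in DCs, so Il2 in T-only droplets did not stand above the level in DCs. Mki67, a marker of dividing cells, was detected in 5 naive and 2 papain T-only droplets, and in 22.2% and 39.3% of DCs. Gata3 is the transcription factor of Th2 cells, and naive T cells also express it. It was detected in 26.1% and 22.4% of T-only droplets and in 2.66% and 0.794% of DCs. DCs in this paragraph are all DCs with an antibody class, some of which held T cell mRNA. Gata3 was in 28 of 58 naive droplets with a class that were rich in both kinds of mRNA. It was in 16 of 31 with a class, T cell mRNA and little DC mRNA.

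The T cell mRNA of the 13 T plus DC droplets differed from that of the T-only droplets. Levels were set per 1000 UMIs of the 17 T cell genes, so that the DC mRNA in the same droplet does not dilute them. Icos stood at 311 (interval 271 to 356) in T plus DC droplets and 29.9 in naive T-only droplets. Icos was found in all 13, with 1 to 37 UMIs each. Il7r, the receptor for interleukin-7, stood at 265 (interval 227 to 306) against 83.9 and was also found in all 13. Classified DCs of the naive library also held Il7r, at 111 CPM, and the part of DC mRNA in this value was not tested. Icos stood at 7.88 CPM in those DCs. Rora (ROR alpha, a transcription factor of type 17 and type 2 lymphocytes) stood at 139.5 (interval 113 to 170) against 7.06. Maf stood at 66.9 against 5.39 and Cd40lg (CD40 ligand) at 32.0 against 1.86.

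Several listed genes of naive T cells were low in the same droplets, while Il7r, on the same list, was higher (265 against 83.9). Lef1 stood at 4.36 (interval 0.899 to 12.7) against 54.6 in naive T-only droplets, and S1pr1 at 13.1 against 93.0. Klf2 stood at 27.6 against 158. Igfbp4 had no UMI in T plus DC droplets and stood at 30.0 in T-only droplets. Cd3d stood at 110.5 (interval 87.0 to 138) against 129 and Trbc2 at 218 (interval 185 to 256) against 183. Among the 17 genes themselves, Thy1 stood at 103 against 28.1 and Zap70 at 37.8 against 8.73.

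The pattern was not that of every one of the 13 droplets. The droplet with 1 UMI of Icos held none of Rora or Maf, 2 of Lef1, 3 of Cd8a and 5 of Cd8b1. In the other 12, Icos ran from 7 to 37 UMIs, and Lef1 was seen in 1 of them, with 1 UMI.

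The listed genes of gamma-delta T cells were found in the T plus DC droplets and in few T-only droplets without antibody data. Of the 8 listed genes in the files, 2 or more were found in 11 of 13 T plus DC droplets (84.6%, interval 54.6 to 98.1), in 4 of 218 naive T-only droplets (1.83%, interval 0.502 to 4.63), in 2 of 237 papain T-only droplets (0.844%, interval 0.102 to 3.01) and in 13 of 2860 naive classified DCs (0.455%, interval 0.242 to 0.776). Thinned to 5084 UMIs, the expected shares were 19.5% in T plus DC, 1.89% in naive T-only droplets and 0.148% in DCs. Blk (a Src family kinase of B cells and of gamma-delta T cells that make IL-17) was found in 9 of the 13, Tcrg-C1 (a constant region of the receptor gamma chain) in 7, Il23r in 5 and Il17a in 2. The defining delta chain Trdc was found in 1 of the 13, and Trac in 10 and Trbc2 in all 13, so no lineage name is given to them. In T-only droplets Trdc was found in 7 naive and 8 papain droplets.

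**Figure D4:**
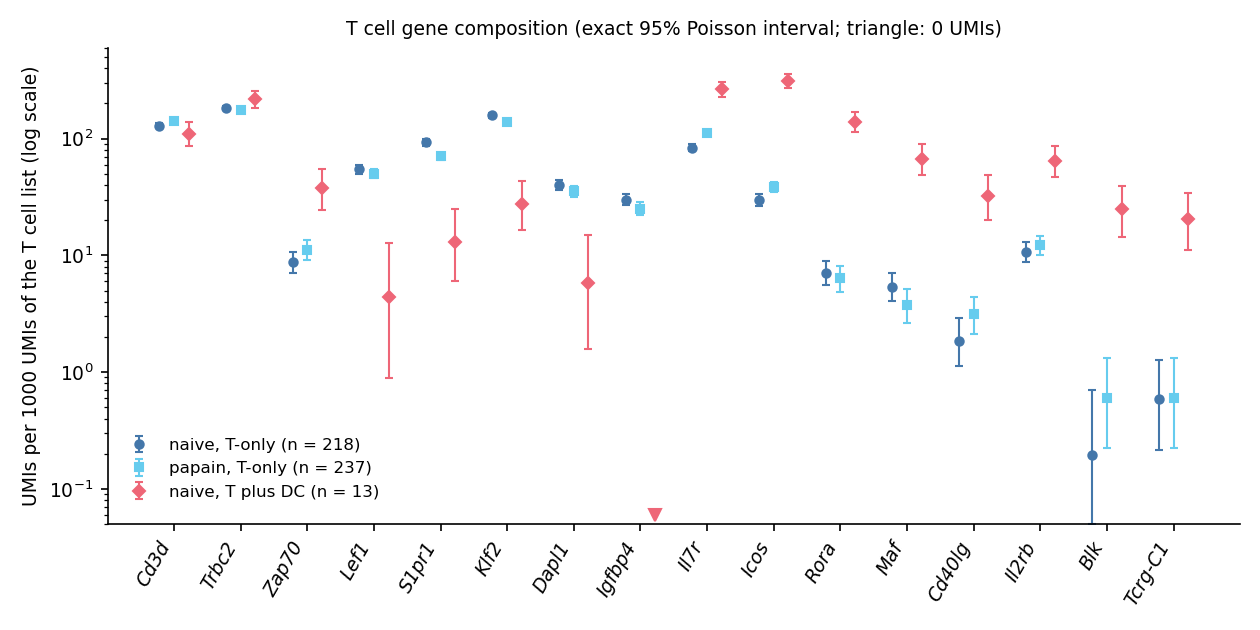
UMIs per 1000 UMIs of the 17 T cell genes (log scale) for the genes on the x axis in naive T-only (218), papain T-only (237) and naive T plus DC droplets (13), with exact 95% Poisson intervals. T-only droplets of both libraries lie close together, while T plus DC droplets are lower for Lef1, S1pr1, Klf2, Dapl1 and Igfbp4 and higher from Il7r to Tcrg-C1.

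DC subset genes varied among the 13 droplets. One droplet held 17 UMIs of Cd209a and 5 of Mgl2, both genes of cDC2s, and another held 14 UMIs of Epcam, which Langerhans cells express. Xcr1, a gene of cDC1s, was found with 1 UMI in 2 of them.

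Droplets that had an antibody class and a Cd3e or Trac UMI were sorted by the same cuts for comparison. In the naive library 58 of 182 (31.9%, interval 25.2 to 39.2) were T plus DC and 31 (17.0%, interval 11.9 to 23.3) were T-only by their mRNA. In the papain library 44 of 322 (13.7%, interval 10.1 to 17.9) were T plus DC and 4 were T-only. Per 1000 T cell UMIs, Icos stood at 161, Rora at 129 and Lef1 at 17.5 in the 58 naive droplets, and at 65.1, 24.9 and 60.3 in the 44 papain droplets. In the 31 naive droplets with a class that were T-only, Icos stood at 189.9, Rora at 116 and Lef1 at 11.2, in droplets with little DC mRNA. Of the naive droplets with a class, 25 of the 58 and 20 of the 31 held 2 or more of the gamma-delta genes. None of the 48 papain droplets with a class and at least 15 T cell UMIs did, which allows a share of up to 6.25% by the same limit of 3 droplets.

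Between the libraries, the T cells under the limit of 10% MHC class II (203 naive and 211 papain droplets) had few genes past 2-fold. Of 1235 genes with at least 100 CPM and a UMI in at least 10% of droplets of the higher group, 11 (0.891%) were more than 2-fold higher and 1 (0.081%) more than 2-fold lower in the papain library. The median log2 ratio (of CPM plus 1) over these genes was -0.01. None of the 18 receptor genes, 10 naive T cell genes or 3 activation genes that passed the filter moved by 2-fold. That is near the shares of all genes tested (0.891% and 0.081%), so it is not read as a result about these lists. The log2 ratios of the receptor genes lay between -0.31 and 0.48, and those of the naive T cell genes between -0.50 (S1pr1) and 0.43 (Il7r). Taken over all T droplets, the counts were 26 higher and 37 lower. These include 19 naive and 4 papain droplets above the gap in DC UMIs, among them the papain droplet with B cell genes. Over the T-only droplets they were 11 higher and 2 lower.

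Most of the genes past 2-fold were ribosomal protein genes and their copies. Rpl31-ps16 was at 130 CPM in papain and 43.6 in naive T droplets (log2 ratio 1.55, interval 1.17 to 1.98). Rpl27-ps3 (1.39), Rplp2 (1.31) and Rpl17-ps4 (1.26) were also among the 5 highest. In classified DCs, which come from the same 2 libraries, Rpl31-ps16 was at 51.2 and 32.6 CPM (log2 ratio 0.64), and the log2 ratios of the other 3 were 1.01, 0.79 and 0.48. Of the 12 genes past 2-fold, 8 had a ribosomal protein symbol. Pseudogenes share reads with near-identical copies, so their values are uncertain. At the lower end, AC160336.1 (-1.08), Cenpa (-0.96), Gm19243 (-0.96), Rps29 (-0.94) and Gm29257 (-0.93) had lower levels in the papain library, and their log2 ratios in DCs were -1.44, -1.11, -1.59, -1.13 and -1.07. Over 143 ribosomal protein genes and copies the log2 ratio ran from -0.94 to 1.55, with a median of 0.14.

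Isg15, a ubiquitin-like protein induced by interferon, was the gene past 2-fold with a known role outside the ribosome. Isg15 was at 139 CPM in papain and 61.4 CPM in naive T droplets (log2 ratio 1.17, interval 0.83 to 1.54), and was present in 39.8% and 21.7% of them. In classified DCs it was at 218 and 41.0 CPM (log2 ratio 2.38). Within the CD4 T cell-like cluster Isg15 was at 147 and 43.1 CPM in the papain and naive library, and within the CD8 T cell-like cluster at 130 and 75.1 CPM. The part of DC mRNA in these values was not tested.

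**Figure D5:**
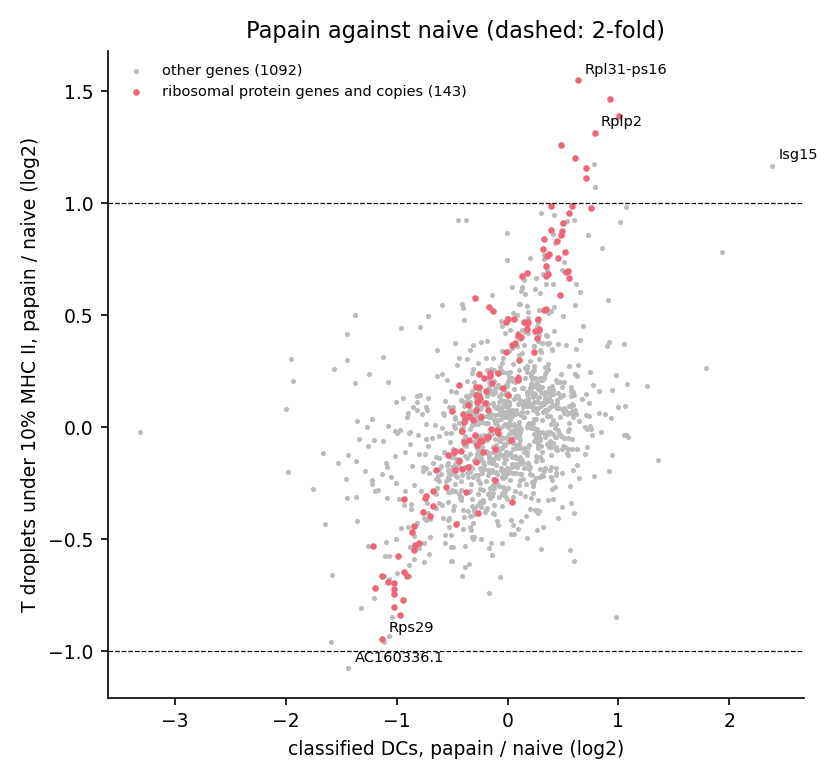
Log2 ratio of papain to naive CPM in T droplets under 10% MHC class II (y axis) and in classified DCs of the same 2 libraries (x axis) for the 1235 genes tested, with ribosomal protein genes and copies (143) in red. Dashed lines mark 2-fold in T droplets, which 11 genes exceeded upward and 1 downward.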

How the data were processed

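The naive and papain libraries were prepared with a 10x Genomics 3' v3 kit. Per the labels, the authors used Cell Ranger 3.0.1, Partek and the mm10 build. The authors deposited log2 values, log2(CPM + 1), of 18049 genes per droplet and the counts of expressed genes. UMI counts were recovered from the log2 values (100% of values up to 50 UMIs were whole within 0.02). Sums of UMIs per group and library gave CPM; log2 ratios used a pseudocount of 1 CPM. With 1 library per group, cells are not replicates and no p-value was computed. The design named lineage gates, an MHC class II limit of 10%, contrasts filtered at 50 and 100 CPM and Leiden clusters (scanpy 1.11.5, 2000 variable genes, 20 components, 15 neighbours, resolution 0.5). Clusters were named from marker lists. Doublets were kept, since droplets with mRNA of 2 cells were of interest. Named genes were those of the lists, the 5 highest and lowest in each contrast (ranked for T droplets against DCs by the mean of both libraries), and those past 2-fold. Isg15 and the cluster leaders outside the lists, the split at 20 DC UMIs and 15 T cell UMIs and the genes compared per 1000 T cell UMIs were chosen after values were seen. Members and lists were chosen with earlier results of these data known. Ptprcap, Il4, Il5, Il13, Ifng, Gpr83, Sox13 and some other listed genes were not analysed here, and a few genes that these rules name are not reported here. Antibody values were not used, since no T droplet had any. Scripts were tested on simulated data.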

Additional observations from a re-analysis of the deposited data

How the results depend on the processing

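No paired analysis was possible because each group was 1 library and the labels give no replicate numbers. The CD4 share moved from 19.4% to 10.1% (naive) and from 22.8% to 9.13% (papain) with 2 UMIs asked for; under thinning, in droplets under the 10% limit or with at least 2 Cd3e plus Trac UMIs it stayed within its interval, as did the CD8 share under all alternatives. Median MHC class II fell to 1.61% (naive) and 1.85% (papain) with UMIs in place of CPM. The share under 10% was 90.3% and 98.3% with the migratory DC list, 91.6% and 97.9% with UMIs, 68.8% and 67.2% at a limit of 5%, 91.6% and 97.1% at 20%, and 92.0% and 98.3% for droplets under 20 DC UMIs (chosen after seeing the data). Without a filter on low values, 2285 (naive) and 2898 (papain) genes were higher and 2538 and 3225 lower in T droplets than in DCs, and 748 higher and 1127 lower in papain than in naive T droplets. With the filter kept, 26 genes were higher and 37 lower in papain than in naive when all T droplets were taken. Over T-only droplets (chosen after seeing the data) 2 were lower with the filter. The shares of CD8 T cell-like, DC-rich and all other droplets stayed within their intervals with fewer or more variable genes, at a resolution of 1.0 or with values centred within each library. At a resolution of 1.0 the other droplets include unnamed groups of 31 and 23, so the CD4 T cell-like share was not followed on its own. The groups of 113 and 102 droplets there held 47 and 35 droplets of the CD4 gate. They made up 20.7% and 21.1% of naive and 26.6% and 21.6% of papain T droplets. The CD4 T cell-like cluster of the main setting held 46.0% and 58.9%. With the mean over droplets in place of the sum, Fabp5 moved from -2.49 to -3.71 (naive) and from -4.27 to -5.62 (papain) on the log2 scale, and papain Flrt3 from -2.25 to -4.20. Of 240 alternative values 169 stayed within the error of the main value, or 1.5 times for counts, 71 moved and none reversed. The shallow T droplets, with a median of 1 MHC class II UMI in T-only ones, limit what can be said of a single droplet.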

Other observations

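At a finer clustering (resolution 1.0), a group of 31 droplets (8 naive, 23 papain) separated from the CD4 and CD8 T cell-like ones. It was led by Lrrc32, Ifit3, Hopx, Ikzf2, Ifit1 and Ctla4, a mixture of genes known from regulatory T cells (Lrrc32, Ikzf2, Ctla4) and genes induced by interferon (Ifit1, Ifit3), and was left unnamed. It held the 3 naive T droplets with a Foxp3 UMI and 3 of the 6 papain ones. Ikzf2 had a UMI in all 8 naive droplets of the group and in 8 of its 23 papain ones. Ifit1 had a UMI in 2 of the 8 and in 16 of the 23. Another group of 23 droplets (8 naive, 15 papain) was led by Tnfrsf9 (4-1BB, a receptor of activated T cells), Srm, Slc19a1, Fam162a and Mif, and held Myc UMIs in 4 of 15 papain droplets and none of 8 naive ones. Both groups were read off after clustering.

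Ighm, the heavy chain of IgM, was present in 122 of 218 naive T-only droplets (56.0%, interval 49.1 to 62.7) and 84 of 237 papain ones (35.4%, interval 29.4 to 41.9), against 14.4% and 6.39% of classified DCs. Thinned to 5084 UMIs, the Ighm shares were 44.5% and 28.7% in T-only droplets and 7.24% and 3.02% in DCs. The other B cell genes did not follow. Cd79a had no UMI in T-only droplets of either library, which allows shares of up to 1.38% and 1.27% (3 droplets of each total), and Igkc was found in 3 naive droplets and no papain one. In 21 naive droplets that had a Cd79a UMI but no antibody data and no T transcripts, Igkc (3649 CPM) stood above Ighm (1549 CPM), while in naive T-only droplets Ighm was at 133 CPM and Igkc at 2.90 CPM. Ighm was found in CD4 T cell-like (47.7% and 29.8%) and CD8 T cell-like (64.2% and 43.8%) T-only droplets alike. Its source in these droplets was not tested.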
